A study of Rattus norvegicus with 6 samples.

Results

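The genes described here are 10 immediate early transcription factors of the AP-1 and EGR families, chosen by name: Fos, Fosb, Fosl1 and Fosl2 of the FOS family, Jun, Junb and Jund of the JUN family, the related factor Atf3, and the zinc finger factors Egr1 and Egr3. The choice was made with earlier results of these data known. Of these 10, 9 had a probe set with exactly 1 symbol and were measured, among 18166 genes tested, and Fosl2 was not analysed here. Their transcript levels were compared between basal cells and the remaining, non-basal cells of the epididymis, the coiled duct in which sperm mature, taken from Sprague-Dawley rats aged 48 days. The fractions were obtained by magnetic separation, no genetic change or treatment is named for either, and each was hybridised to 3 Affymetrix arrays, for which values on a log2 scale after RMA normalization were deposited. The study's design text names 3 rats and triplicate experiments but ties no array to an animal, so each p-value rests on the spread among these arrays alone, part of which may be technical. The surface molecule used for the separation is not given in the labels.

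AP-1 is a dimer of basic leucine zipper proteins, usually 1 FOS with 1 JUN protein, that binds DNA and switches genes on or off. Most of these genes are immediate early genes: growth factors, cell stretch and stress act through MAP kinases on factors already present in the cell, above all serum response factor (SRF) with its ETS partners, and the transcripts appear quickly and are soon degraded. The FOS proteins differ in that Fosl1 lacks the strong activation domain of Fos and is common in basal and migrating epithelial cells, whereas Jund is present in most resting cells. The EGR proteins answer the same signals and are held back by the corepressors Nab1 and Nab2.

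The sequences below show which letters of known motifs stand near the gene's start. They are given for the member with the largest difference between the fractions (Fosl1) and for the member promoter with the most motif matches (Jund). Srf and Dusp5, 2 related genes that were higher in the basal fraction, were picked for display and do not stand for the other higher genes. Each is the window from 250 bases before to 50 bases after the gene's start in RefSeq on the GRCr8 build, printed 5′ to 3′ on the gene's strand. Windows were held for 6 of the 10 members, and capitals mark motif matches. Positions count from the start site as 0.
Fosl1, chr1:212183635-212183934 (plus strand), holds no match to the motifs searched.
Fosl1: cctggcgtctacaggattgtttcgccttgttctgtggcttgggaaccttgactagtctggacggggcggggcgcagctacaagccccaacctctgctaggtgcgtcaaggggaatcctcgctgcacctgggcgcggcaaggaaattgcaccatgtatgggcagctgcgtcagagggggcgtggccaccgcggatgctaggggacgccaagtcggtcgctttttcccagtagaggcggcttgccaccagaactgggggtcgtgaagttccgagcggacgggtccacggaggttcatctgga
Jund, chr16:18769722-18770021 (minus strand), holds 1 CRE (bases -221 to -214) and 3 EGR sites, the nearest to the start at bases -31 to -23.
Jund: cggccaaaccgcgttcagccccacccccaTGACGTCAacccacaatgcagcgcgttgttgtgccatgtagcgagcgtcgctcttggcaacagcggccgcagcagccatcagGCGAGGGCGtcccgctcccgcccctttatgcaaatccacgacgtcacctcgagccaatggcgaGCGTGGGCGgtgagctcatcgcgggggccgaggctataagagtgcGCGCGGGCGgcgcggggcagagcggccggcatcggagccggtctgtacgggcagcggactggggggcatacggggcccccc
Srf, chr9:21923826-21924125 (plus strand), holds 2 CArG boxes (bases -81 to -72 and -61 to -52) and 1 EGR site.
Srf: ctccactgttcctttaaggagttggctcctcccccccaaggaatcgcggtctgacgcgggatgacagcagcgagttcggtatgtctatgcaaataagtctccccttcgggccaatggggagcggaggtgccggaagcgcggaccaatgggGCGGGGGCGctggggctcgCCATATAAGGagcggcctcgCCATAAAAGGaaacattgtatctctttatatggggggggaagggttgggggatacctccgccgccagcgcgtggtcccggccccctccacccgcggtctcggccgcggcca
Dusp5, chr1:262543524-262543823 (plus strand), holds 2 CArG boxes next to each other (bases -82 to -73 and -72 to -63) and 1 EGR site.
Dusp5: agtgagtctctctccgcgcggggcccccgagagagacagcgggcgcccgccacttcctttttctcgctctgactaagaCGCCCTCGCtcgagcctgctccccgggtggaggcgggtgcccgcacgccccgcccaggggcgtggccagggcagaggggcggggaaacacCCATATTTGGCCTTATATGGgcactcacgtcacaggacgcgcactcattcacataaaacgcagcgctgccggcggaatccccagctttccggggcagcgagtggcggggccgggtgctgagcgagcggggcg

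The motifs searched, on both strands, were the CArG box bound by SRF, the cyclic AMP response element or CRE (TGACGTCA), the AP-1 site (TGANTCA) and the EGR site (GCGNGGGCG), and none of the matches shown overlapped another. Among 27457 promoter windows of the same length, 1.64% held a CArG box, 1.91% a CRE, 7.33% an AP-1 site and 5.29% an EGR site. Of the 6 member promoters, Egr1 held 2 CArG boxes, Jund held a CRE, and Jund and Fosl2 held EGR sites. Fosl1, Fosb and Junb held no match to any of the 4 motifs, and no member promoter matched the AP-1 site. Of 44 promoters of other immediate early genes, 6.82% held a CArG box, 11.4% a CRE and 22.7% an EGR site, and 20% of 25 promoters of known AP-1 and EGR target genes held an AP-1 site. The shares were 6.82% for the AP-1 site in the former and 8% for the EGR site in the latter. Of 37 promoters of MAP kinase and SRF pathway genes, 1 (2.7%) held a CArG box, that of Srf. A match describes these letters only and shows no binding.

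Transcripts of Fosl1, Jun and Atf3 were higher in the basal than in the non-basal fraction, Fosl1 by 2.42-fold and Jun and Atf3 by 1.38-fold and 1.41-fold. The other 6 measured members did not pass the test, and none was lower (0 by limma, and 0 at an unadjusted p under 0.05). Fos had the most negative difference, at -0.35 on the log2 scale, and 7 of the 9 differences were positive. With limma and Benjamini-Hochberg adjustment, 33.3% of the 9 members were called at an adjusted p under 0.05, against 14.9% of all genes tested (7.71% higher and 7.14% lower). The 14.9% counts dim genes too. Of the 10876 genes with a mean of at least 7 in at least 1 fraction, 1581 were higher and 1380 lower in a fit of their own. In that fit 4 of the 9 members were higher and 0 lower. The median difference of the members was 0.20, against 0.0034 over all genes. These are bulk samples, in which fewer cells of a type and less RNA per cell cannot be told apart.

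**Figure D1:**
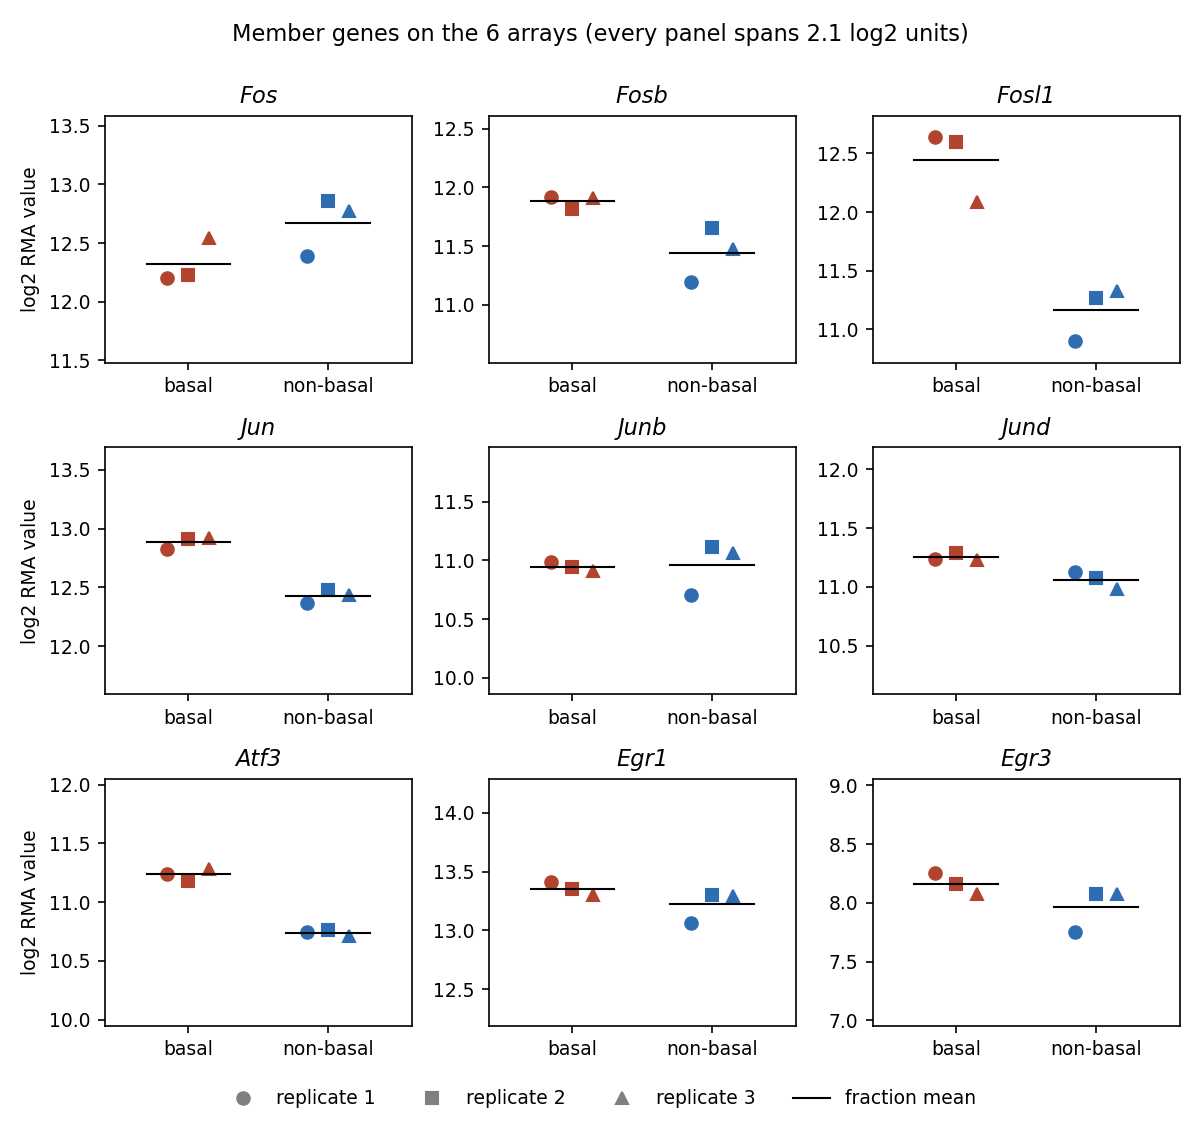
Log2 RMA values (vertical axis) of the 9 measured members in the 3 basal (red) and 3 non-basal (blue) arrays; symbols mark the replicate number of the label, black lines are fraction means, and every panel spans the same range of log2 units. The fractions lie apart for Fosb, Fosl1, Jun, Jund, Atf3 and, barely, Egr1, and non-basal replicate 1 (blue circle) is the lowest non-basal array for 7 of the 9 genes.

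Of the 3 FOS genes measured, 1 passed the test, Fosl1. Fosl1 had values of 12.64, 12.60 and 12.08 in the basal arrays (given as replicates 1, 2 and 3 here and below) against 10.90, 11.27 and 11.33 in the non-basal arrays. Every basal array lay above every non-basal array, with basal replicate 3 nearest to them. The means were 12.44 ± 0.308 (SD, n = 3) and 11.17 ± 0.232 (n = 3). They differed by 1.27 ± 0.189 (SE) on the log2 scale with a limma adjusted p of 0.00937, which was the 250th highest of 18166. Without basal replicate 2 the difference was 1.19 and the limma adjusted p 0.0549, so that this call was lost, whereas it held in the other 5 fits with 1 array left out.

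Fos, the founding member and partner of the JUN proteins, did not pass the test. Its basal values were 12.20, 12.23 and 12.54 and its non-basal values 12.39, 12.86 and 12.77. Basal replicate 3 lay above non-basal replicate 1, so the fractions overlapped. The difference was -0.35 ± 0.157 (SE; limma adjusted p = 0.198), with a 95% interval from -0.73 to 0.03. When basal replicate 3 and non-basal replicate 1 were both left out, the difference was -0.60 and the adjusted p 0.00964 (2 against 2 arrays), and with array weights it was -0.51 (adjusted p = 0.0187). These are the 2 arrays whose values overlapped, so leaving them out sets the fractions of Fos apart. Both settings also called more of all genes. Without the 2 arrays 2499 were higher and 2124 lower, and with array weights 2868 and 2323, against 1401 and 1297 in the main fit. Leaving out non-basal replicate 1 alone gave -0.49 (adjusted p = 0.0652).

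Fosb, a close relative of Fos, had basal values of 11.92, 11.82 and 11.91 and non-basal values of 11.19, 11.66 and 11.48. The basal arrays were nearly level and all lay above the non-basal ones, which were spread more widely. The difference was 0.44 ± 0.125 (SE), 1.36-fold, with a limma adjusted p of 0.0702. The call was made with array weights (adjusted p = 0.0395) and when genes with a mean under 7 in both fractions were left out (adjusted p = 0.0453). In both settings a larger share of all genes was called.

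Among the JUN genes, Jun, the main partner of the FOS proteins, had basal values of 12.83, 12.92 and 12.92 and non-basal values of 12.36, 12.48 and 12.44. The replicates were tight and the fractions did not overlap. The means were 12.89 ± 0.0526 (SD, n = 3) and 12.43 ± 0.0574 (n = 3), a difference of 0.46 ± 0.0656 (SE; limma adjusted p = 0.00814). A second probe set of Jun was higher by 0.64 ± 0.11, with an adjusted p of 0.0256 in a fit over all 36685 probe sets. Its basal values of 10.23, 10.45 and 10.13 all lay above its non-basal values of 9.55, 9.61 and 9.74. The call for Jun held in all 6 fits with 1 array left out, with adjusted p up to 0.0434.

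Junb, an antagonist of Jun at some promoters, had basal values of 10.99, 10.94 and 10.91 and non-basal values of 10.71, 11.12 and 11.06. The non-basal arrays lay on both sides of the basal ones. The difference was -0.02 ± 0.119 (SE; limma adjusted p = 0.944), with a 95% interval from -0.31 to 0.27, and its sign changed when basal replicate 3, non-basal replicate 2 or non-basal replicate 3 was left out. Jund, the JUN gene of resting cells, had basal values of 11.23, 11.29 and 11.23 and non-basal values of 11.13, 11.07 and 10.98. The fractions did not overlap, but the difference was small, at 0.19 ± 0.067 (SE; limma adjusted p = 0.119). With array weights, where more of all genes were called, it passed the threshold (adjusted p = 0.0375).

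Atf3, a leucine zipper factor induced by stress that pairs with JUN proteins and often represses, had basal values of 11.24, 11.18 and 11.28 and non-basal values of 10.74, 10.76 and 10.71. All basal arrays lay above all non-basal arrays with little spread on either side. The means were 11.24 ± 0.0511 (SD, n = 3) and 10.74 ± 0.0245 (n = 3), a difference of 0.50 ± 0.0606 (SE) with the lowest adjusted p of the members (limma, 0.00525). The call held in all 6 fits with 1 array left out, where the difference ranged from 0.47 to 0.52.

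The EGR genes among the members, Egr1 and Egr3, did not pass the test. Egr1, the best known member of its family, had basal values of 13.41, 13.35 and 13.30 and non-basal values of 13.06, 13.30 and 13.29. The lowest basal value (13.3048) lay only just above the highest non-basal value (13.3033). The difference was 0.14 ± 0.0876 (SE; limma adjusted p = 0.354), with a 95% interval from -0.08 to 0.35, and without non-basal replicate 1 it was 0.06. Egr1 also had the highest mean of the measured members in both fractions, at 13.36 (basal) and 13.22 (non-basal). Whether so high a level in both fractions limits the difference that can be seen was not tested. All arrays are of separated cells, so a part of cell handling in levels shared by both fractions was not tested either. Egr3, a second factor of the family, had basal values of 8.25, 8.16 and 8.08 and non-basal values of 7.75, 8.08 and 8.08. The value 8.07533 was listed for 3 arrays, basal replicate 3 and non-basal replicates 2 and 3. Exact ties between arrays were found in 32.0% of all probe sets. The difference of Egr3 was 0.20 ± 0.111 (SE; limma adjusted p = 0.294), and without non-basal replicate 1 it was 0.089.

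**Figure D2:**
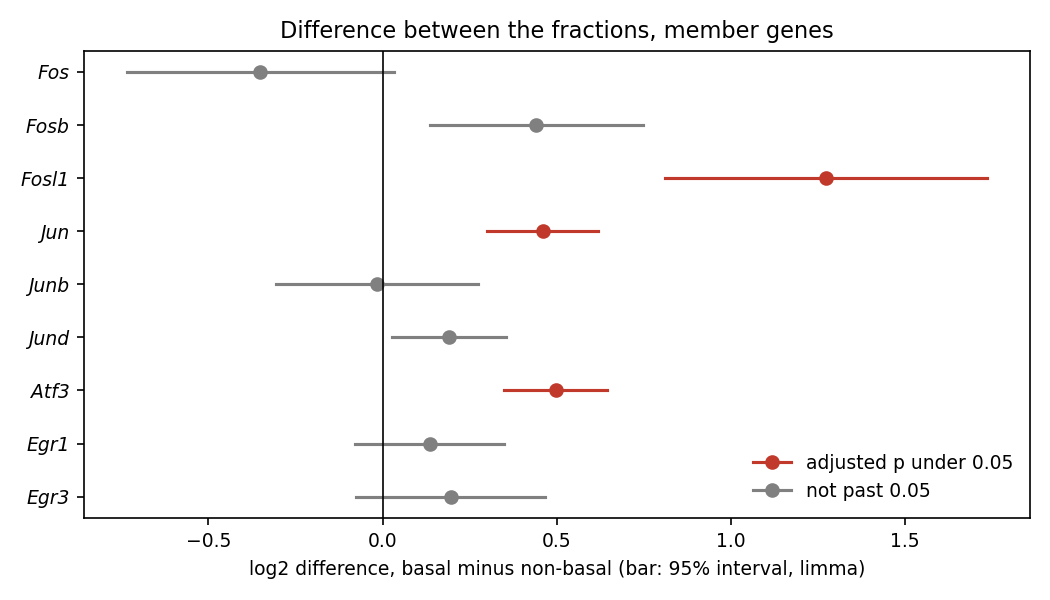
Log2 difference, basal minus non-basal, of each measured member with its 95% interval from the limma fit (horizontal axis); red marks an adjusted p under 0.05 and grey the rest. Fosl1 stands at 1.27, Jun and Atf3 at 0.46 and 0.50, and the interval of Fos reaches from -0.73 to 0.03.

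Across the 9 members, the 3 basal values lay above the 3 non-basal values in 6 genes and below them in 0. Over all genes tested the fractions did not overlap in 32.9%, with the basal values above in 17.6% and below in 15.3%. To ask whether members differed in their change, the difference between a pair of members within each array was compared between the fractions for all 36 pairs with a two-sided exact permutation test. For Fos minus Fosl1 the basal mean was -0.12 ± 0.497 (SD, n = 3) and the non-basal mean 1.51 ± 0.0737 (n = 3), a change of -1.62 on the log2 scale (exact permutation p = 0.1). Fos minus Fosb and Fos minus Jun changed by -0.79 and -0.81, likewise with fractions that did not overlap, which was so in 25 of the 36 pairs. The share among pairs drawn from all genes was not computed. The 36 pairs reuse the same 9 genes, so the count gives no result about the members as a set. Jun minus Atf3 changed by -0.04, with overlapping fractions (exact permutation p = 0.7), and Egr1 minus Egr3 by -0.06 (exact permutation p = 0.3). With 3 against 3 arrays p cannot go below 0.1, and the lowest value adjusted over the 36 pairs was 0.144.

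The members also varied within a fraction. Non-basal replicate 1 held the lowest non-basal value of Fos, Fosb, Fosl1, Jun, Junb, Egr1 and Egr3, 7 of the 9 members, whereas it was the lowest non-basal array in 32.3% of all genes. Non-basal replicate 2 held the highest non-basal value of 6 members (28.3% of all genes). The mean deviation of the members from each gene's mean over the 6 arrays came to 0.18, 0.16 and 0.13 in the basal and -0.31, -0.05 and -0.10 in the non-basal arrays. Other immediate early genes had the same low array, at -0.22 in non-basal replicate 1 against 0.01 and -0.03 in the other non-basal arrays. Marker lists also stood apart in that array, some lower and some higher. In non-basal replicate 1 basal epithelial markers lay at -1.65 against -0.99 and -0.98, fibroblast markers at 1.30 against 2.16 and 2.03, and macrophage and dendritic cell markers at -0.34 against 0.75 and 0.57. Lymphocyte markers lay at 0.42 against 1.17 and 1.09 and smooth muscle markers at 1.01 against 1.16 and 1.09. The opposite held for principal cell markers, at 0.40 against 0.13 and 0.15, for narrow and clear cell markers, at 0.44 against -0.11 and 0.0029, and for endothelial markers, at 0.85 against 0.64 and 0.72. Their part in the member values was not tested.

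**Figure D3:**
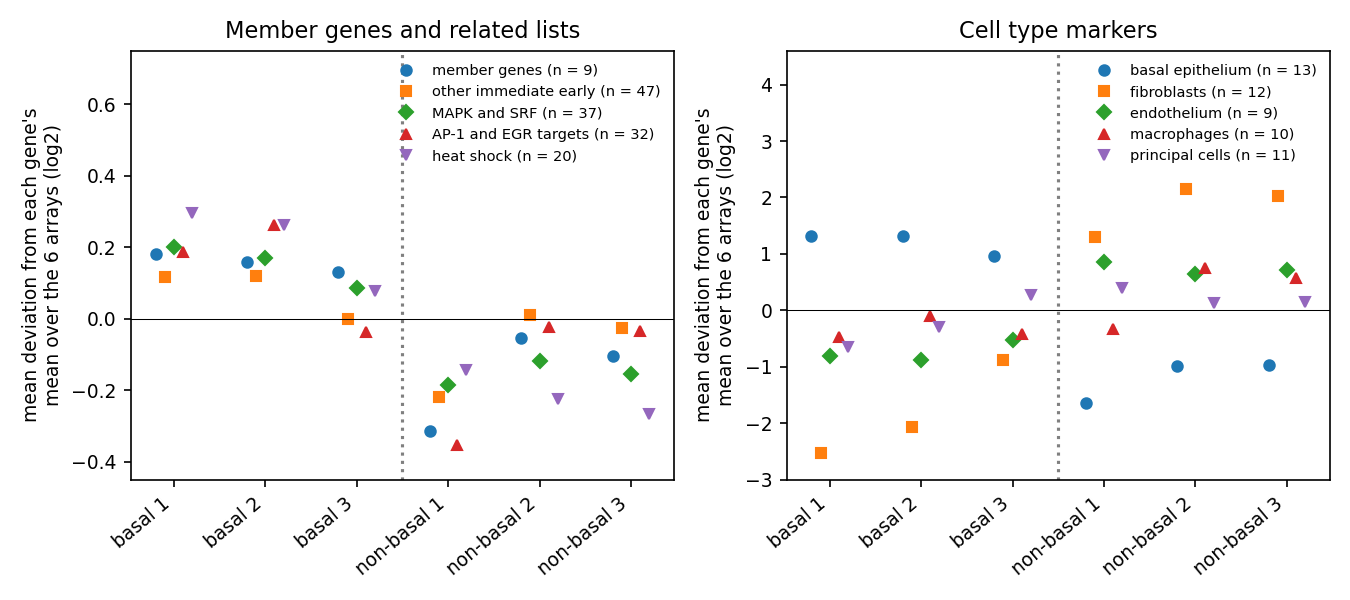
Mean deviation from each gene's mean over the 6 arrays (vertical axis, log2) for the members and 4 related lists (left) and for 5 sets of cell type markers (right) in every array (horizontal axis), with the 2 panels on different vertical scales. The members are lowest in non-basal replicate 1, at -0.31, and basal replicate 3 lies nearest to the non-basal arrays in fibroblast markers, at -0.88.

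The fractions as wholes differed in markers of several cell types. All 13 measured basal epithelial markers were higher in the basal fraction, among them Krt14 and Tp63, a keratin and a transcription factor of basal layers, at 3.40 and 3.10 on the log2 scale (limma adjusted p = 0.0118 and 0.00247), and the integrin gene Itga6 at 2.08 (adjusted p = 0.0034). All 12 fibroblast markers were lower, with a mean log2 level of 7.69 to 9.35 in the basal and 11.52 to 12.38 in the non-basal arrays, and so were all 9 smooth muscle and all 9 endothelial markers. Col1a1, a collagen chain of fibroblasts, had a difference of -4.04 (adjusted p = 0.0131), and the leukocyte antigen Ptprc -1.98 (adjusted p = 0.0189). The call of Krt14 was lost without basal replicate 1 or 2 (adjusted p up to 0.0663), that of Col1a1 without basal replicate 2, non-basal replicate 2 or non-basal replicate 3 (up to 0.0738), and that of Ptprc without any 1 of these 4 arrays (up to 0.0914). Of the macrophage and dendritic cell markers 2 of 10 were lower, of the lymphocyte markers 7 of 11, of the principal cell markers 1 of 11 and of the narrow and clear cell markers 0 of 8, against 7.14% lower among all genes (for the last list 0 also at an unadjusted p under 0.05). The macrophage gene Cd68 had a difference of -0.08 and the luminal gene Lcn5 one of -0.32 (adjusted p = 0.836 and 0.204). Without basal replicate 3 the difference of Lcn5 was -0.47 and it was called lower (adjusted p = 0.0208). How far these cell types bear on the member genes was not tested.

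Upstream of the members, genes of the MAP kinase and SRF pathway were measured for 37 of 45 listed symbols. Of these 9 were higher and 2 lower, 29.7% called against 14.9% of all genes, with a median difference of 0.17. With dim genes left out (mean of at least 7 in at least 1 fraction), 10 of 34 were higher and 1 lower. In that fit 1581 and 1380 of all 10876 genes were, so the list stood nearer to all genes. Srf, which encodes the factor known to bind CArG boxes, was 3.16-fold higher, with basal values of 12.14, 12.07 and 11.92 and non-basal values of 10.34, 10.36 and 10.44. The basal arrays stood clear of the non-basal ones, at a difference of 1.66 ± 0.0804 (SE; limma adjusted p = 0.00111). Egfr, the epidermal growth factor receptor that feeds this pathway, was higher by 2.49 ± 0.324 (adjusted p = 0.00617) and Map3k5, a stress-activated kinase upstream of JNK and p38, by 0.82 ± 0.0731 (adjusted p = 0.00259). The lower genes were Mapk10, a gene of the JNK family, at -0.55 and Rps6ka2, a ribosomal S6 kinase, at -0.44 (adjusted p = 0.0168 and 0.0452). Both of these calls were lost without basal replicate 2, non-basal replicate 2 or non-basal replicate 3 (adjusted p up to 0.0746 and 0.158), and that of Rps6ka2 also without basal replicate 1. The number higher was 4 when basal replicate 1 or non-basal replicate 2 was left out and 3 when basal replicate 2 or non-basal replicate 3 was. The number lower was 0 without basal replicate 2 or non-basal replicate 2 or 3, 1 without basal replicate 1, and 3 when basal replicate 3 or non-basal replicate 1 was left out.

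Of 32 measured genes among other AP-1, ATF and MAF factors and EGR partners, 4 were higher and 2 lower (18.8% called, near the 14.9% of all genes), with a median of 0.02. With dim genes left out in the same way, 5 of 30 were higher and 4 lower, beside 1581 and 1380 of all 10876 genes. Bach2, a repressor that pairs with small MAF proteins, was higher by 1.56 ± 0.147 (limma adjusted p = 0.00291), and Mafg, a small MAF protein, by 0.59 ± 0.101 (adjusted p = 0.0145). Egr4, a further EGR factor, was higher by 0.77 ± 0.0705 (adjusted p = 0.00266), with basal values of 7.34, 7.35 and 7.26 above non-basal values of 6.61, 6.46 and 6.57. Crem, a cyclic AMP-responsive factor, was lower at -0.70 ± 0.136 (adjusted p = 0.0224), and Atf6, a sensor of endoplasmic reticulum stress, at -0.28 ± 0.0684 (adjusted p = 0.0457). The calls of Egr4 and Bach2 held whichever array was left out and that of Atf6 in none of these fits (adjusted p up to 0.133). The call of Mafg was lost when basal replicate 1, non-basal replicate 3 or basal replicate 2 was left out (up to 0.0726), and that of Crem without basal replicate 2 or any 1 non-basal array (up to 0.0975). The number higher was 2 when basal replicate 2 or non-basal replicate 3 was left out and 8 when basal replicate 3 was. The number lower was 0 without basal replicate 2, non-basal replicate 2 or non-basal replicate 3, and it was 1 without basal replicate 1.

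Other immediate early genes went both ways. Of 47 measured among 54 listed, 12 were higher and 7 lower, so 40.4% were called against 14.9% of all genes, with a median of 0.08. With dim genes left out in the same way, 12 of 47 were higher and 8 lower, beside 1581 and 1380 of all 10876 genes. Ccn2, the matricellular connective tissue growth factor, was higher by 2.11 ± 0.15 (limma adjusted p = 0.00206), Dusp5, a phosphatase that switches off ERK, by 1.13 ± 0.109 (adjusted p = 0.00298), and Arc, a cytoskeleton-linked early gene, by 1.21 ± 0.142 (adjusted p = 0.00482). Among the lower genes, Ptgs2, the inducible prostaglandin synthase, had basal values of 12.44, 12.43 and 12.36 and non-basal values of 13.31, 13.43 and 13.43. It differed by -0.98 ± 0.0666 (adjusted p = 0.00197), with tight replicates on both sides. The orphan nuclear receptor genes Nr4a2 and Nr4a3 were lower at -1.02 ± 0.074 and -0.82 ± 0.0914 (adjusted p = 0.00206 and 0.00416). All 6 of these calls held in every fit with 1 array left out. The number higher fell to 6 without basal replicate 2 and to 7 without non-basal replicate 3, and the number lower to 4 without basal replicate 2, non-basal replicate 2 or non-basal replicate 3.

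Among genes known as targets of AP-1 or EGR factors, 13 of 32 measured were higher and 5 lower, 56.2% called against 14.9% of all genes, with a median of 0.36. With dim genes left out in the same way, 13 of 29 were higher and 5 lower, beside 1581 and 1380 of all 10876 genes. The platelet-derived growth factor gene Pdgfa was higher by 1.17 ± 0.0693 (limma adjusted p = 0.00176), the cytokine gene Lif by 1.56 ± 0.131 (adjusted p = 0.00237) and Gclc, of glutathione synthesis, by 0.77 ± 0.0695 (adjusted p = 0.00266). Il6, an inflammatory cytokine, was 7.05-fold lower, with basal values of 7.95, 8.39 and 8.80 and non-basal values of 10.84, 11.38 and 11.38 (adjusted p = 0.00266). The chemokine gene Ccl2 was lower at -2.27 ± 0.184 and the protease inhibitor gene Timp1 at -0.87 ± 0.0753 (adjusted p = 0.00232 and 0.0025). The basal arrays all lay above the non-basal arrays in 13 of these 32 genes and below them in 5. Over all genes tested the shares were 17.6% above and 15.3% below, so the share below was near that of all genes. The number higher was 8 when basal replicate 1 or non-basal replicate 3 was left out and 6 when basal replicate 2 was.

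Heat shock genes, some of whose transcripts rise with protein-damaging stress including that of cell handling, were measured for 20 of 24 listed symbols. Hspa1a, Hspa1b, Hspa1l and Hsp90aa1 were not among the genes tested. In the basal fraction 9 were higher and 1 lower (median 0.42, 50% called against 14.9% of all genes). With dim genes left out in the same way, 10 of 20 were higher and 1 lower, beside 1581 and 1380 of all 10876 genes. The small heat shock protein gene Hspb1 was higher by 1.10 ± 0.0812 (limma adjusted p = 0.00206), Hsph1, of the HSP110 class, by 0.75 ± 0.0854 (adjusted p = 0.00438) and the chaperone gene Hsp90ab1 by 0.59 ± 0.0734 (adjusted p = 0.00558). Hspa5, the chaperone of the endoplasmic reticulum, was lower at -0.31 ± 0.0755 (adjusted p = 0.0464), but passed only in the fit without basal replicate 3 when single arrays were left out (adjusted p up to 0.15). Averaged over the list, the deviation came to 0.29, 0.26 and 0.08 in the basal and -0.14, -0.22 and -0.27 in the non-basal arrays. These values differed between the fractions, and their part in the member differences was not tested. The number higher was 4 when basal replicate 1 or 2 or non-basal replicate 2 or 3 was left out. Centring each array on its median left 5 higher.

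**Figure D4:**
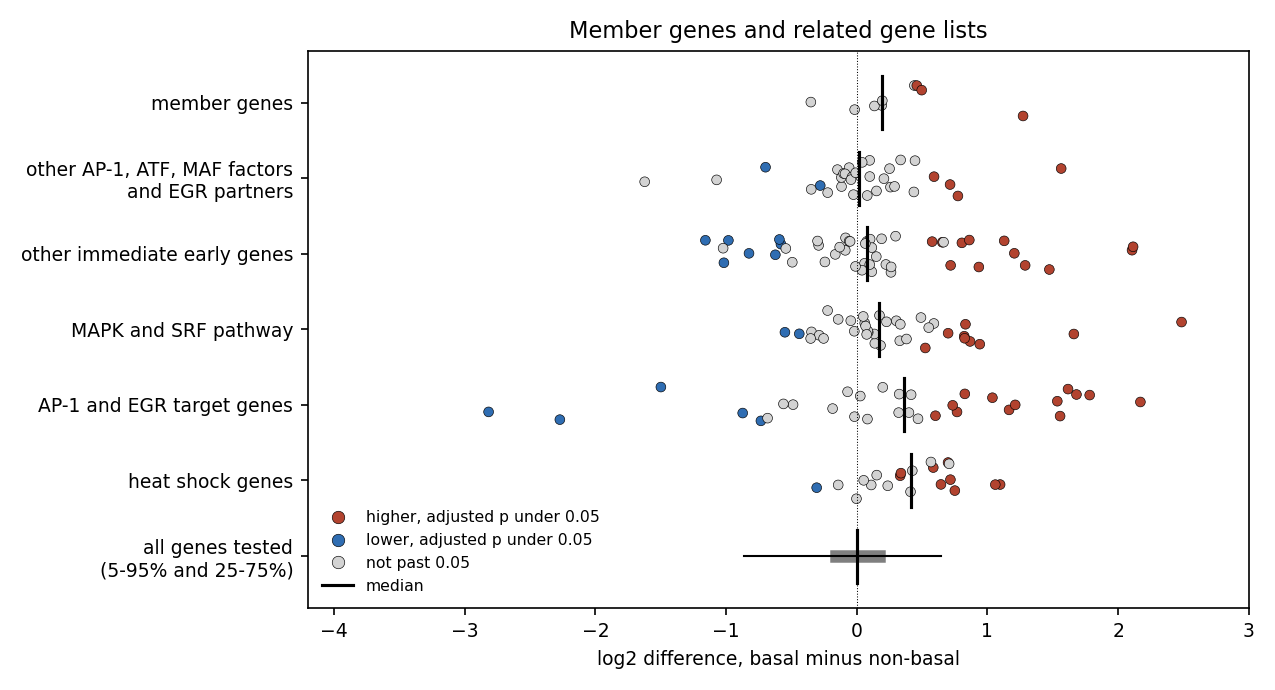
Log2 difference, basal minus non-basal (horizontal axis), of every measured gene in the members and 5 related lists, with black lines at the medians and the spread of all 18166 genes below; red is higher and blue lower at an adjusted p under 0.05. Member genes have a median of 0.20 and the target list one of 0.36, and the 4 lists other than the members and the heat shock genes hold genes called in both directions past 0.5 on the log2 scale.

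For each member, the gene outside the list with the most similar course over the 6 arrays was found by the root mean square difference of values centred on each gene's mean. For Fosl1 this was Aldh1a3, a retinaldehyde dehydrogenase gene, at 0.0532 on the log2 scale, which was itself higher by 1.28 ± 0.206 (limma adjusted p = 0.0119). That call was lost when basal replicate 1, non-basal replicate 3 or basal replicate 2 was left out (adjusted p up to 0.0634). Pard3, a cell polarity gene, was the nearest to both Jun (0.0324) and Atf3 (0.0342), and it was higher by 0.50 ± 0.0577 (adjusted p = 0.0045). The nearest genes were Cast for Fosb (0.0453), Mbnl1 for Junb (0.0308), Mcph1 for Jund (0.0151), Mucl3 for Egr1 (0.0133), Dusp12 for Egr3 (0.0257) and the unnamed locus LOC500174 for Fos (0.0464). Among the members themselves the closest were Egr1 and Egr3 (0.0465) and Jun and Atf3 (0.0581). Jund had 4718 genes at least as near as its nearest member, Egr1. For Fos, nearest to Junb, there were 1975, and for Fosl1, nearest to Atf3, 1374. The number ran from 10 (Atf3) to 310 (Junb) for the others, with 78 for Egr1 and 26 for Egr3. These are descriptions over 6 arrays, each picked from 18166 genes.

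**Figure D5:**
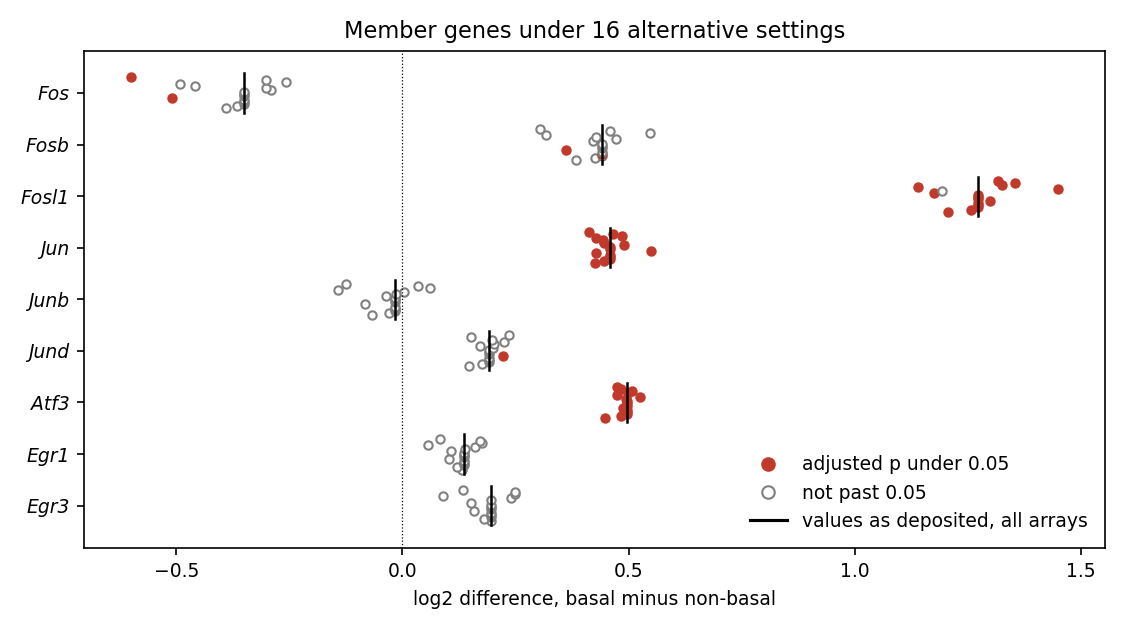
Log2 difference, basal minus non-basal, of each measured member (horizontal axis) under 16 alternative settings (points, filled where the adjusted p is under 0.05), with a black line at the value from the deposited data. The points of Jun and Atf3 are all filled, 1 of Fosl1 is open, and those of Junb lie on both sides of 0.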

How the data were processed

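Total RNA of each fraction was labelled with biotin and hybridised to 1 array per sample, 6 in all. The deposited log2 values were made by the authors with RMA and Affymetrix Expression Console, as the submitters' processing notes list. RMA corrects background, matches the distributions of the arrays and summarises probes, so a shift of most genes would be removed. The version and probe set library are not given in the sources used here. Values ran from 1.46 to 14.33, array medians from 6.63 to 6.70, and correlations were 0.982 to 0.991 within fractions and 0.956 to 0.974 between them. The number of arrays limits the precision.

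Of 36685 probe sets, 18511 had 1 symbol, 575 several and 17599 none in the platform annotation. Entrez identifiers of 18394 were found in RefSeq, and 0 symbols changed. The probe set with the highest mean was used per gene (291 genes had several), giving 18166 genes, with no filter on dim ones. Basal minus non-basal differences were fitted with limma 3.58.1 in R 4.3.3 (lmFit, eBayes, no block, 4 residual degrees of freedom before moderation), two-sided, adjusted over all genes by Benjamini-Hochberg. The fit was also tested on artificial data drawn with the means and spread fitted to these genes. Of 50 genes changed by each of 0.5, 1, 2 and 3 on the log2 scale, it recovered 30%, 90%, 100% and 98%. Far fewer genes were changed there than were called in these data, so the shares do not carry over directly. The members, lists and tests were chosen with earlier results of these data known. Named genes were the members, the 3 higher and 3 lower called genes of each list with the smallest p, the gene nearest to each member, and 7 marker examples.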

Additional observations from a re-analysis of the deposited data

How the results depend on the processing

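Of 144 values of the 9 members under 16 alternatives each, 135 kept their direction and their side of the threshold, 1 lost the call (Fosl1), 5 gained one (Fos and Fosb in 2 settings each, Jund in 1) and 3 changed sign (Junb). The number of members higher was 3 as deposited, 5 with array weights and 2 to 3 with 1 array left out; the number lower was 0, but 1 with array weights and 1 without basal replicate 3 and non-basal replicate 1 together, and 0 in each fit with 1 array left out. No member was lower at an unadjusted p under 0.05 (limma), and 5 were higher. Over all genes 1401 were higher and 1297 lower. Array weights gave 2868 and 2323, leaving out both of those arrays 2499 and 2124, and an adjusted p under 0.01 gave 491 and 556. With 1 array left out the counts ran from 509 to 2068 and from 542 to 1607, the low ones without basal replicate 1 or 2 or non-basal replicate 2 or 3. Junb changed sign without basal replicate 3 (0.0029), non-basal replicate 2 (0.061) and non-basal replicate 3 (0.034), and with 1 array left out ran from -0.14 to 0.061. Mbnl1 did so in the same fits (0.013, 0.070 and 0.036; range -0.17 to 0.070), and Cd68 without non-basal replicates 2 and 3 (0.064 and 0.022; range -0.32 to 0.064). The cause was not tested. The replicate numbers were tried as a block: 3 members were higher and 0 lower, and 982 and 1027 of all genes. Deviations of arrays with the same number correlated at 0.028 to 0.038 across genes, and those of arrays with different numbers at -0.068 to 0.027. Values this weak and this near to each other do not show a pairing. The labels tie no number to an animal, and no pairing was assumed. Other background corrections were not run on these summarised values. Scan or slide batches are not given in the sources used here.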
